A study of Rattus norvegicus with 10 samples.

Results

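The DNA damage checkpoint kinases and the genes around p53 were followed in fetal rat hearts as 9 genes chosen by name, namely Atm, Atr, Chek1, Chek2, Mdm2, Cdkn1a, Gadd45a, Gadd45b and Gadd45g, out of 18025 genes listed in the expression table. All 9 were among the 14542 genes whose mean reached 0.1 FPKM (fragments per kilobase of transcript, scaled to the fragments mapped in the library) and were tested. The hearts came from wild-type (wt) Sprague-Dawley fetuses at embryonic day 19.5. The mothers of both groups were aged 3 months and were injected on 3 consecutive days after mating. Mothers of the hyperglycemia (HG) group received streptozotocin, a toxin of pancreatic beta cells. Their blood glucose was above 16 mM when measured 7 days later. Control (CON) mothers received citric acid buffer alone. There were 5 libraries per group, each labelled as heart tissue, although a legend of the study names isolated fetal cardiomyocytes for the same comparison, and the sources do not say how the fetuses were spread over litters, so that p-values measure only the spread between these libraries. Streptozotocin was given to every HG mother and to no CON mother, and the drug and the high glucose cannot be told apart.

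Atm and Atr are large kinases that sense broken DNA and stalled replication forks, and they switch on the checkpoint kinases Chek2 and Chek1, which halt the cell cycle until the damage is repaired. The same kinases stabilise p53, a transcription factor whose targets include Cdkn1a, an inhibitor of cyclin-dependent kinases, and Mdm2, the ubiquitin ligase that in turn degrades p53. The 3 Gadd45 proteins are small stress-induced proteins that bind Map3k4, Pcna and the Cdk1-cyclin B complex and take part in DNA repair and demethylation. In the fetal heart, where cardiomyocytes still divide, the replication-linked arm of Atr and Chek1 is also active in undamaged cells. All of these kinases act mainly through phosphorylation, which messenger RNA does not measure.

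Promoters of 8 of the 9 genes were found in the RefSeq table of the GRCr8 assembly, in windows from 250 bases before to 50 bases after the annotated start. The 250 bases before the start are shown for Cdkn1a, a textbook p53 target, and for the 3 Gadd45 genes, of which Gadd45a was lower and Gadd45b higher in HG hearts. Capitals mark TATAAA as the core promoter element, CCAAT as its upstream box, GGGCGG as the site of Sp factors and CACGTG as the E-box, each on either strand, and matches to the degenerate p53 half-site. None of the marked motifs overlapped another. Cdkn1a lies on the plus strand at chr20:7150682-7150931, and the other 3 on the minus strand, Gadd45a at chr4:97486800-97487049, Gadd45b at chr7:9430719-9430968 and Gadd45g at chr17:13530352-13530601.
Cdkn1a: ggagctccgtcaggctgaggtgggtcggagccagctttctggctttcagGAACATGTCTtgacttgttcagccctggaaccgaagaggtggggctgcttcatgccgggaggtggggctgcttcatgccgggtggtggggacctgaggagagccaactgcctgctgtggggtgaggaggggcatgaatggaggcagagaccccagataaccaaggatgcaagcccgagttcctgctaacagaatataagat
Gadd45a: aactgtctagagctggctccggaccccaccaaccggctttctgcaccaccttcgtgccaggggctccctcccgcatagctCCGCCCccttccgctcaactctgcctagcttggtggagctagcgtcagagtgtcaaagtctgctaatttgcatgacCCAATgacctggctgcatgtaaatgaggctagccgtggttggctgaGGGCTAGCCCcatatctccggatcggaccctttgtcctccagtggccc
Gadd45b: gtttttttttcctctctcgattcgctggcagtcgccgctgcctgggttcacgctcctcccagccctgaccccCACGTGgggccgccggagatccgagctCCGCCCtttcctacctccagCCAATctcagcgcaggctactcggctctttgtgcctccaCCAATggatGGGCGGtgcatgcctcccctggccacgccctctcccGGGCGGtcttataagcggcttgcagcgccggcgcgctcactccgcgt
Gadd45g: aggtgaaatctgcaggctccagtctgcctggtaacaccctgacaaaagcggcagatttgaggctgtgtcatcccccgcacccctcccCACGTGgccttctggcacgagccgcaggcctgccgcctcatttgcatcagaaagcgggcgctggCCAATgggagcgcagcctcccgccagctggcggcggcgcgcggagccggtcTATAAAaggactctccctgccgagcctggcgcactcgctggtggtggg

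The 3 Gadd45 promoters all held a CCAAT box, which occurred in 37.5% of the 33469 promoters in the table. Only Gadd45g of the 8 promoters held TATAAA (14.2% of all promoters). The E-box CACGTG (6.42% of all promoters) was found in Gadd45b and Gadd45g and not in Gadd45a. The Sp site GGGCGG (33.1% of all promoters) was found 3 times in Gadd45b and once in Gadd45a, and not in Gadd45g. A p53 half-site (7.98% of all promoters) was matched in Cdkn1a from -201 to -192 and in Gadd45a from -48 to -39, counted from the start. A pair of half-sites within 13 bases, which 0.0598% of all promoters held, was matched in none of the 8 windows. The pattern allowed no mismatched letter and only these windows were searched, so an imperfect or more distant pair would be missed. The unmarked motifs searched were TGACG, which lay in 6 of the 8 windows and in 21.2% of all promoters, TTTGAA (Mdm2 only, 18.3%) and the full cAMP response element (none of the 8, 1.83%), which contains TGACG. The 8 windows ranged from 52.3% to 66.0% GC, against a median of 51.7% over all promoters. These matches describe letters in the window and do not show binding.

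The libraries held between 16672876 and 19109844 reads on genes, and the ranges of both groups overlapped. Each FPKM value was a whole multiple of what 1 read is worth, so that the reads behind a value are known. Troponin, myosin and titin genes were abundant in every library, as the tissue label says. Of 11 cardiomyocyte markers, however, 9 were lower in HG and 1, Nppa, was higher (mean of 1733 FPKM in CON and 2855 FPKM in HG). The summed level of the 11 markers was 32434 to 33803 FPKM in CON and 27309 to 31628 FPKM in HG. All 25 proliferation genes listed for comparison were higher in HG (18 with median-of-ratios factors), with summed levels of 949.8 to 1016 FPKM in CON and 1214 to 1357 FPKM in HG. Fewer or more cells of a type and less or more RNA per cell cannot be told apart in such bulk hearts. Liver markers summed to 85.5 FPKM in CON replicate 3 and 3.15 to 9.10 FPKM in the other CON libraries, all above the 1.33 to 2.71 FPKM in HG, and without CON replicate 3 none of the 9 genes changed direction or its side of the test's threshold. Smooth muscle and pericyte markers summed to 789 to 911 FPKM in CON and 996 to 1249.7 FPKM in HG (3 higher and 2 lower of 8), and red cell markers to 10579.8 to 19997 FPKM in CON and 8339 to 11686 FPKM in HG (3 higher and 10 lower of 14). Fibroblast markers summed to 1724 to 2010.3 FPKM in CON and 1556 to 1785 FPKM in HG (2 higher and 4 lower of 8), and macrophage markers to 38.6 to 50.4 FPKM and 46.8 to 59.1 FPKM (3 higher and 1 lower of 8). Endothelial markers had 2 higher and none lower of 8. The part of such shifts in cell make-up in the values below was not tested.

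Of the 9 genes, 5 were higher in HG (Atm, Atr, Chek1, Chek2 and Gadd45b), 1 was lower (Gadd45a) and 3 did not pass the test (Mdm2, Cdkn1a and Gadd45g), at an adjusted p under 0.05 in limma with Benjamini-Hochberg adjustment over all genes. The called share of 66.7% stands beside a background of 40.1% of all genes tested, with 28.4% higher and 11.8% lower. None of the 9 changed by more than 1 on the log2 scale. Of all genes, 1.94% passed that size together with an adjusted p under 0.05. The groups did not overlap for 4 genes (Atm, Atr and Chek2 above, Gadd45a below), against 27.4% of all genes. The median log2 fold change was 0.26 over the 9 genes and 0.09 over all genes. Scaling with median-of-ratios factors moved that median to 0.01 and the share of higher genes among all called from 70.7% to 47.1% (53% with quantile normalization), so a difference of about 0.09 in either direction depends on the scaling.

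**Figure D1:**
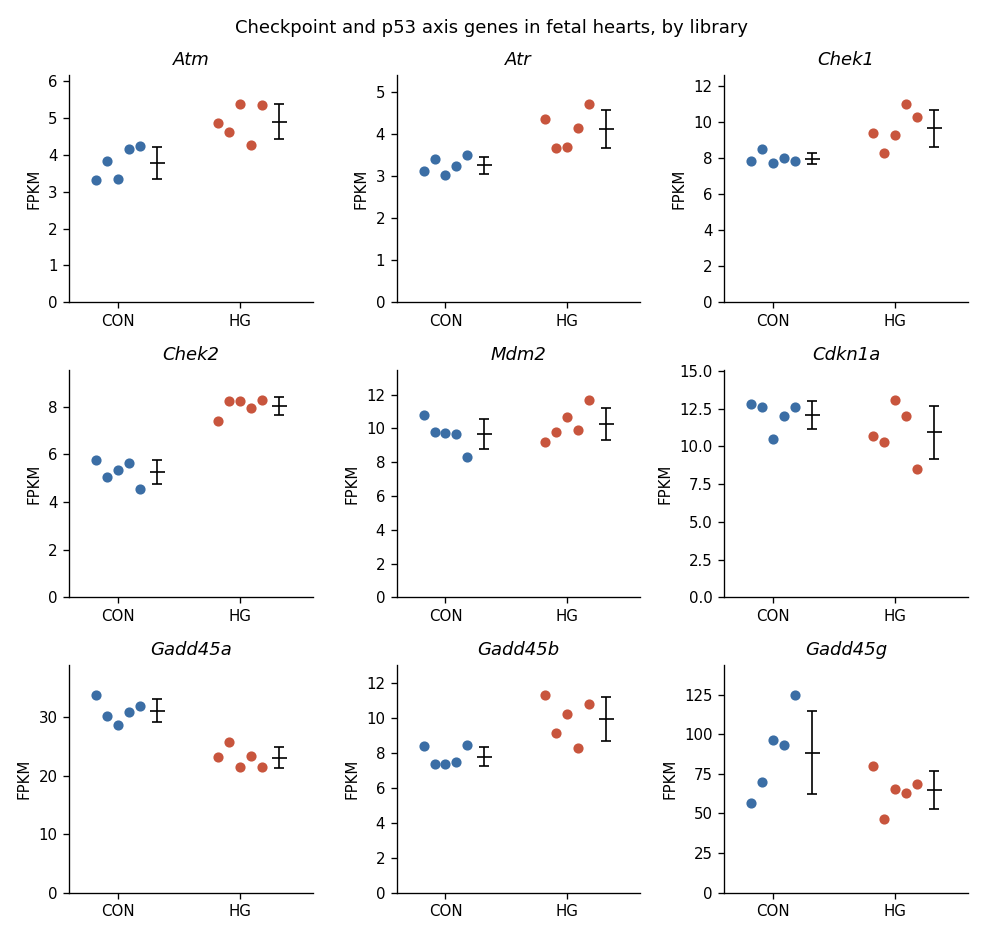
FPKM of each of the 9 genes (vertical axes, from 0) in the 5 CON (blue) and 5 HG (red) libraries, in order of replicate number, with the mean and SD in black. Chek2 lies between 4.55 and 5.77 FPKM in CON and between 7.42 and 8.30 FPKM in HG, while Cdkn1a and Mdm2 overlap between the groups.

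Gadd45g was the most abundant of the 9 transcripts in both groups, followed by Gadd45a, and Atr was the least abundant. FPKM is scaled to transcript length, so levels can be set side by side. In CON the order after Gadd45a was Cdkn1a, Mdm2, Chek1, Gadd45b, Chek2, Atm and Atr. Library ranges overlapped between Cdkn1a and Mdm2, between Mdm2 and Chek1, between Mdm2 and Gadd45b, between Chek1 and Gadd45b and between Atm and Atr. In HG Gadd45b moved above Chek1, and the ranges of Cdkn1a, Mdm2, Gadd45b and Chek1 all overlapped, as did those of Gadd45b and Chek2 and of Atm and Atr.

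The apical kinases Atm and Atr were both higher in HG hearts with like ratios to CON (1.29 for Atm and 1.25 for Atr). Atm (NCBI gene 300711) was measured at 3.31, 3.83, 3.35, 4.17 and 4.25 FPKM in CON replicates 1 to 5, and at 4.86, 4.63, 5.37, 4.28 and 5.36 FPKM in HG replicates 1 to 5. The lowest HG library, replicate 4, lay just above the highest CON library, replicate 5. The log2 fold change was 0.37 (SE 0.092, 95% interval 0.17 to 0.57, adjusted p = 0.00741, limma), from 744 to 955 reads in a CON library and 952 to 1174 in an HG library. Atr (685055) was at 3.11, 3.40, 3.02, 3.23 and 3.49 FPKM in CON and at 4.36, 3.66, 3.70, 4.15 and 4.70 FPKM in HG. All 5 HG libraries were again above all 5 CON libraries. Its log2 fold change was 0.33 (SE 0.082, 95% interval 0.15 to 0.50, adjusted p = 0.00735, limma). The ratio of Atr to Atm within a library had a geometric mean of 0.863 in CON and 0.839 in HG and overlapped between the groups (log2 difference -0.04, exact permutation p = 0.706, two-sided, adjusted p = 0.848 over the 6 ratios tested).

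Of the effector kinases, Chek2 changed most of the 9 genes. Chek2 (114212), which Atm activates, was at 5.77, 5.04, 5.33, 5.63 and 4.55 FPKM in CON and at 7.42, 8.25, 8.23, 7.96 and 8.30 FPKM in HG. The groups were separated by a wide gap, and the HG libraries varied less (coefficient of variation 4.55%) than the CON libraries (9.33%). The mean rose from 5.26 ± 0.491 to 8.03 ± 0.366 FPKM (SD, n = 5), a ratio of 1.52 on the fitted scale and a log2 fold change of 0.60 (SE 0.069, 95% interval 0.45 to 0.75, adjusted p = 4.61e-05, limma). It rested on 190 to 247 reads in each library of CON and 327 to 358 in each of HG. Chek1 (140583), the target of Atr, was at 7.83, 8.54, 7.72, 8.03 and 7.83 FPKM in CON and at 9.41, 8.31, 9.30, 11.0 and 10.3 FPKM in HG. HG replicate 2 lay inside the CON range and the other 4 lay above it. Its log2 fold change was 0.26 (SE 0.070, 95% interval 0.11 to 0.42, adjusted p = 0.00994, limma). With median-of-ratios factors the Chek1 difference was 0.18 and no longer passed (adjusted p = 0.0751).

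The balance of the effector kinases within a library also differed. The ratio of Chek2 to Chek1 was 0.657 in CON (geometric mean, 0.581 to 0.738) and 0.835 in HG (0.725 to 0.993). Of the HG libraries, 4 lay above every CON library. The log2 difference of 0.35 had an exact permutation p of 0.0159 (two-sided, adjusted p = 0.0476 over 6 ratios), where 5 against 5 libraries allow no p below 0.00794. A ratio within a library does not depend on how libraries are scaled.

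Set against the summed level of the 25 proliferation genes, Chek2 was the one kinase of the 4 without overlap between the groups, a description chosen after the values were seen. Chek2 stood at 4.52 to 5.74 FPKM per 1000 FPKM of proliferation genes in CON and at 5.87 to 6.84 in HG, so that all 5 HG libraries remained above the CON range. Chek1 stood at 7.77 to 8.56 in CON and 6.83 to 8.47 in HG, with 3 HG libraries below the CON range. Atr stood at 3.09 to 3.47 in CON and 2.96 to 3.87 in HG, with 3 HG libraries below the CON range and 2 above it. Atm stood at 3.29 to 4.22 in CON and 3.15 to 4.42 in HG. Chek1, Atr and Atm thus overlapped between the groups on this scale. The part of proliferation in the kinase differences was not tested.

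**Figure D2:**
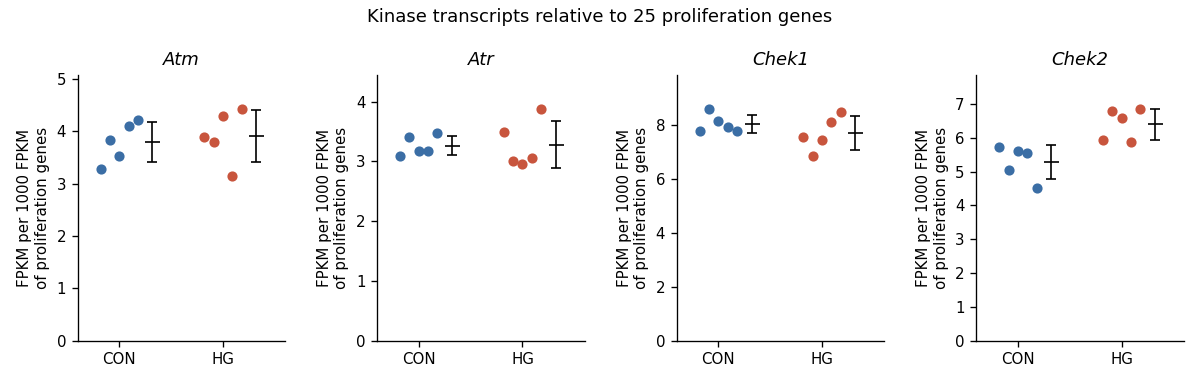
FPKM of Atm, Atr, Chek1 and Chek2 per 1000 FPKM summed over 25 proliferation genes (vertical axes, from 0), by library, with mean and SD in black. Chek2 is the one panel in which the 5 HG libraries (red, 5.87 to 6.84) all lie above the 5 CON libraries (blue, 4.52 to 5.74).

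Mdm2 and Cdkn1a, the usual transcript readouts of p53, were not called in either direction. Mdm2 (314856) was at 10.8, 9.78, 9.71, 9.65 and 8.29 FPKM in CON and at 9.21, 9.78, 10.7, 9.89 and 11.7 FPKM in HG. All HG libraries but replicate 5 lay within the CON range, and the log2 fold change was 0.09 (95% interval -0.08 to 0.26, adjusted p = 0.394, limma), the same as the median of all genes. Cdkn1a (114851) was at 12.8, 12.6, 10.5, 12.0 and 12.6 FPKM in CON and at 10.7, 10.3, 13.1, 12.0 and 8.52 FPKM in HG. HG replicate 3 was the highest and HG replicate 5 the lowest of all 10 libraries, and the spread was wider in HG (coefficient of variation 16.0% against 7.64%). Its log2 fold change was -0.16 (95% interval -0.38 to 0.06, adjusted p = 0.228, limma), so a rise above 0.06 lies outside the interval. The ratio of Cdkn1a to Mdm2 was 1.26 in CON and 1.06 in HG (log2 difference -0.25, exact permutation p = 0.151, adjusted p = 0.226).

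**Figure D3:**
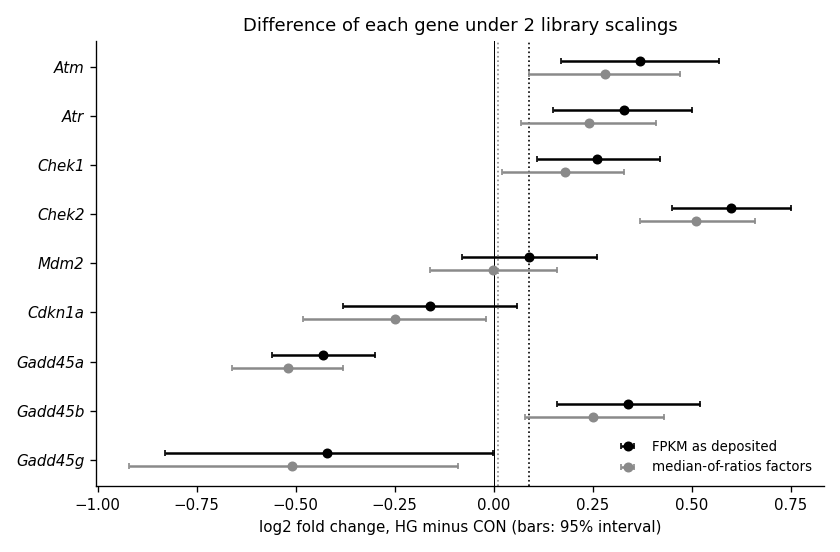
Log2 fold change of the 9 genes, HG minus CON (horizontal axis), with 95% intervals, from FPKM as deposited (black) and after median-of-ratios scaling (grey); dotted lines mark the median of all genes at 0.09 and 0.01. Chek2 at 0.60 is farthest above zero, and Gadd45a at -0.43 and Gadd45g at -0.42 are farthest below, with a much wider interval for Gadd45g.

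Of the 3 Gadd45 transcripts, Gadd45a was lower and Gadd45b higher in HG, and Gadd45g did not pass the test. Gadd45a (25112), the member most often used as a p53 target, was at 33.8, 30.2, 28.6, 30.9 and 31.9 FPKM in CON and at 23.2, 25.8, 21.5, 23.4 and 21.4 FPKM in HG. Every HG library was below every CON library. The mean went from 31.1 ± 1.91 to 23.0 ± 1.82 FPKM (SD, n = 5), a log2 fold change of -0.43 (SE 0.059, 95% interval -0.56 to -0.30, adjusted p = 1.53e-04, limma). Gadd45b (299626), a member known as a response gene of inflammatory and TGF-beta signals, was at 8.35, 7.34, 7.33, 7.45 and 8.41 FPKM in CON and at 11.3, 9.12, 10.2, 8.25 and 10.8 FPKM in HG. All HG libraries but replicate 4 were above the CON range. Its log2 fold change was 0.34 (SE 0.084, 95% interval 0.16 to 0.52, adjusted p = 0.00675, limma), on 165 to 193 reads in each library of CON and 186 to 275 in each of HG.

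Gadd45g (291005) was the most variable of the 9 genes. It was at 56.6, 70.2, 96.5, 93.6 and 125 FPKM in CON and at 80.0, 46.5, 65.7, 62.8 and 68.7 FPKM in HG. CON replicates 1 and 2 lay within the HG range, and the coefficient of variation was 29.8% in CON and 18.7% in HG. The log2 fold change of -0.42, as large as that of Gadd45a, had an SE of 0.19 and did not pass (adjusted p = 0.102, limma). Without CON replicate 1 it was -0.56 and passed (adjusted p = 0.0214), and without CON replicate 5, the highest library, it was -0.28 (adjusted p = 0.229).

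Within a library, Gadd45a was 4.00 times as abundant as Gadd45b in CON (geometric mean, 3.79 to 4.15) and 2.33 times in HG (1.98 to 2.84). The groups did not overlap, and the log2 difference of -0.78 had the smallest exact permutation p that 5 against 5 allow (0.00794, adjusted p = 0.0476 over 6 ratios). The ratio of Gadd45b to Gadd45g was 0.0911 in CON and 0.155 in HG (log2 difference 0.76, exact permutation p = 0.0238, adjusted p = 0.0476). The ratio of Gadd45a to Gadd45g was 0.364 in CON and 0.361 in HG (log2 difference -0.02, exact permutation p = 0.952). Of the summed FPKM of the family, Gadd45b made up 6.31% in CON and 10.2% in HG on average, Gadd45a 25.3% and 24.0%, and Gadd45g 68.4% and 65.8%. Gadd45b shares ranged from 5.09% to 8.46% in CON and from 8.73% to 11.2% in HG.

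**Figure D4:**
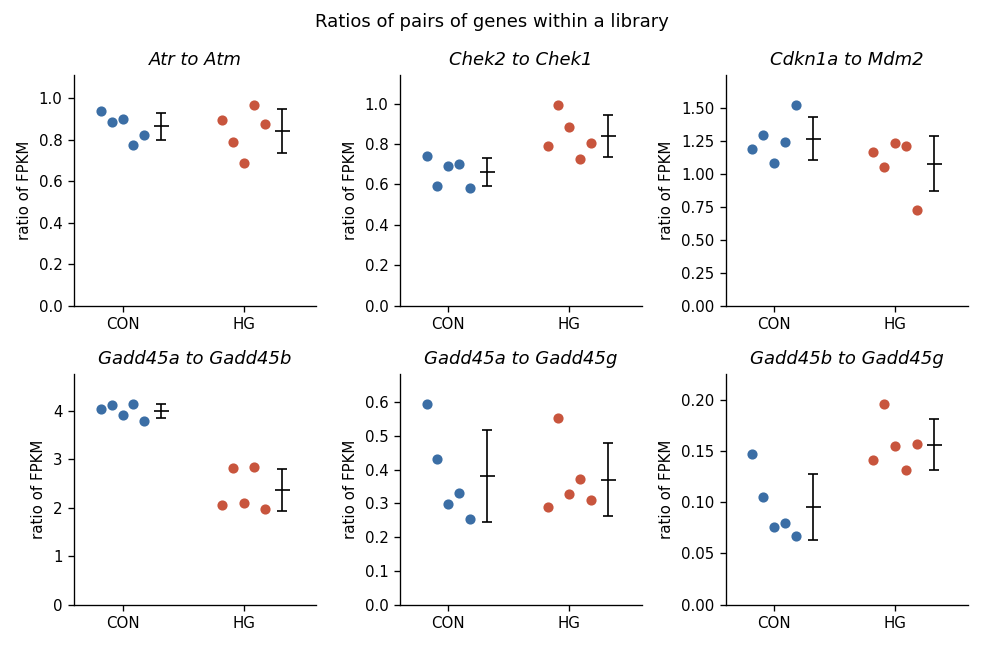
Ratio of FPKM of 2 genes within each library (vertical axes, from 0) for the 6 pairs tested, with arithmetic mean and SD in black, CON in blue and HG in red. Gadd45a to Gadd45b is the pair without overlap (3.79 to 4.15 in CON, 1.98 to 2.84 in HG).

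Genes around the 9 were taken from lists named by role, without the 9 genes themselves. Of 28 genes that sense damage and activate Atm and Atr, 13 rose (46.4%, beside 28.4% of all genes) and none fell, and their median log2 fold change was 0.16 beside 0.09 for all genes. The largest differences among those called were in the fork protection pair Tipin (0.62, adjusted p = 2.61e-05) and Timeless (0.43, adjusted p = 0.00189) and in Rpa3, a subunit of the protein that coats single-stranded DNA (0.46, adjusted p = 1.27e-04). Atrip, the obligate partner of Atr, was at 5.56 ± 0.611 and 5.67 ± 0.205 FPKM (log2 fold change 0.03, adjusted p = 0.755). The Atr activators Rad9a (0.22, adjusted p = 0.00316) and Topbp1 (0.20, adjusted p = 0.00391) were higher, Topbp1 not with median-of-ratios factors (0.11, adjusted p = 0.10). In the complex that recruits Atm to breaks, Mre11 was higher (0.31, adjusted p = 0.00353), whereas Rad50 (0.17, adjusted p = 0.0549) and Nbn (-0.03, adjusted p = 0.727) did not pass. Rad50 passed without HG replicate 2 (0.22, adjusted p = 0.00660) and in voom on the recovered reads (adjusted p = 0.0431). With median-of-ratios factors 8 of the 28 were higher and 1 lower, beside 15.6% and 17.5% of all genes.

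Among 24 cell cycle proteins on which the checkpoint acts, 17 rose (70.8%, beside 28.4% of all genes) and none fell (median 0.22). The mitotic genes Plk1 (0.60, adjusted p = 9.52e-06), Ccnb1 (0.59, adjusted p = 1.20e-06) and Ccna2 (0.56, adjusted p = 2.95e-06) led the list. Of the phosphatases that Chek1 and Chek2 restrain, Cdc25a (0.37, adjusted p = 9.22e-05) and Cdc25c (0.51, adjusted p = 0.00216) were higher and Cdc25b was not called (-0.08, adjusted p = 0.386). Their opponent Wee1 was higher as well (0.22, adjusted p = 0.00949), but not with median-of-ratios factors (0.13, adjusted p = 0.105). The kinases Cdk1 (0.48, adjusted p = 1.68e-05) and Cdk2 (0.29, adjusted p = 4.68e-04), on which Cdkn1a acts, were higher. Pcna, the replication clamp that binds Cdkn1a and the Gadd45 proteins, was 0.18 higher (adjusted p = 0.0109), and 0.09 with median-of-ratios factors (adjusted p = 0.242). The proliferation genes described above rose in the same libraries, and their part in these counts was not tested.

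Of 26 tested regulators of p53, 9 rose and 3 fell (34.6% and 11.5%, near the 28.4% and 11.8% of all genes), with a median of 0.10. Median-of-ratios factors gave 5 higher and 7 lower, beside 15.6% and 17.5% of all genes. Mdm4, the partner of Mdm2, was at 20.4 ± 1.58 and 22.3 ± 2.96 FPKM (log2 fold change 0.12, adjusted p = 0.271). The deacetylase Hdac1 (0.50, adjusted p = 1.09e-06) and the nucleolar protein Npm1 (0.40, adjusted p = 8.20e-05) were higher. The 3 that fell were Hipk2, a kinase of p53 (-0.45, adjusted p = 0.00493), Ppp1r13l, an inhibitor of p53 (-0.33, adjusted p = 9.92e-05), and the methyltransferase Smyd2 (-0.14, adjusted p = 0.0131; 0.0697 with quantile normalization).

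Other p53 targets were called in both directions. Of 47 tested, 22 rose (46.8%, beside 28.4% of all genes), 4 fell (8.51%, beside 11.8%) and 21 did not pass, with a median of 0.20. With median-of-ratios factors 14 were higher and 5 lower, beside 15.6% and 17.5% of all genes. Ppm1d, which rose, was also counted among the regulators of p53. The proliferation genes rose in the same libraries, and their part in the p53 target counts was not tested. Gdf15, a stress cytokine, was 0.89 higher at a low level (0.867 ± 0.213 to 1.72 ± 0.444 FPKM, adjusted p = 0.00305). The apoptosis gene Bid (0.74, adjusted p = 8.74e-05) and the phosphatase gene Ptprv (0.67, adjusted p = 0.00379) followed. Ptprv was at 0.298 ± 0.0587 and 0.531 ± 0.0567 FPKM, and its fold change ran from 0.24 with a pseudocount of 1 to 0.84 in voom on the recovered reads. The 4 lower targets were Ccng1, which encodes cyclin G1 (-0.61, 153 ± 9.24 to 101 ± 8.77 FPKM, adjusted p = 1.58e-05), Steap3 (-0.48, adjusted p = 6.05e-04), Sesn1 (-0.43, adjusted p = 3.45e-04) and the desmosomal protein gene Perp (-0.36, adjusted p = 2.07e-04). The related targets Ccng2 (0.62, adjusted p = 1.05e-04), Sesn2 (0.45, adjusted p = 3.26e-04) and Sesn3 (0.33, adjusted p = 0.00128) were higher. Ccng2, Sesn1 and Sesn3 were also counted among the targets of the glucocorticoid receptor and Foxo factors, and Sesn2 in the integrated stress response (both below). Among the classical apoptosis targets, named after their values were seen, Pmaip1 was 0.56 higher (adjusted p = 0.0181), though not in voom on the recovered reads (adjusted p = 0.183) or with quantile normalization (adjusted p = 0.050), and it rested on 4 to 11 reads in a library. Bbc3 was not called (0.06, adjusted p = 0.729). Bax was 0.20 higher (adjusted p = 0.0309), and did not pass without CON replicate 3, CON replicate 5, HG replicate 1 or HG replicate 3 (adjusted p from 0.0632 to 0.0785) or with median-of-ratios factors (adjusted p = 0.241). Apaf1 (0.36, adjusted p = 3.16e-04) and Tnfrsf10b (0.36, adjusted p = 0.00121) were higher, each at 0.27 with median-of-ratios factors. Fas (-0.04, adjusted p = 0.877) and Pidd1 (-0.01, adjusted p = 0.954) were not called.

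**Figure D5:**
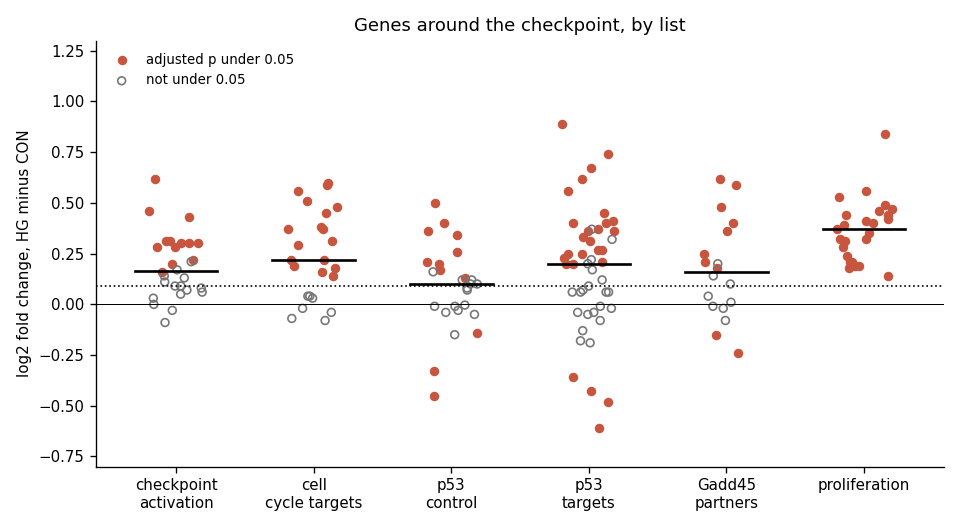
Log2 fold change, HG minus CON (vertical axis), of each tested gene in 6 lists, filled where the adjusted p is under 0.05, with the list's median as a bar and the median of all genes (0.09) dotted. All 25 proliferation genes are filled and above zero, while the p53 control and p53 target lists hold filled points on both sides.

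Of 18 tested partners of the Gadd45 proteins, 8 rose and 2 fell (44.4% and 11.1%, beside 28.4% and 11.8% of all genes, median 0.16). Of those that rose, Cdk1, Ccnb1 and Pcna were also counted among the cell cycle proteins, and Aurka among the regulators of p53. With median-of-ratios factors 6 were higher and 4 lower, beside 15.6% and 17.5% of all genes. Tdg, the glycosylase through which Gadd45a promotes demethylation, was the most increased (0.62, 30.8 ± 3.17 to 47.3 ± 2.18 FPKM, adjusted p = 1.77e-05), followed by Ccnb1 and Cdk1. The kinase Map3k4, which all 3 Gadd45 proteins activate, was at 4.61 ± 0.353 and 4.58 ± 0.248 FPKM (log2 fold change -0.01, adjusted p = 0.955). The 2 lower genes were the p38 kinase Mapk14 (-0.15, adjusted p = 0.0111) and the muscle gene Apobec2 (-0.24, adjusted p = 0.00112).

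The annotation columns of the table gave similar sets. Of 57 tested genes that KEGG places in p53 signaling, other than the 9, 30 rose and 6 fell (52.6% and 10.5%, median 0.21). Of 109 in its cell cycle pathway 74 rose and none fell (67.9%, median 0.22). Both stand beside 28.4% and 11.8% of all genes. These pathways share genes, and Ccnb1, Ccnb2, Ccnd1, Ccne1, Ccne2, Cdk1, Cdk2, Cdk4 and LOC100364016 were counted as higher in both. With median-of-ratios factors p53 signaling had 21 higher and 9 lower, and the cell cycle pathway 51 and 3. The matching shares of all genes were 15.6% and 17.5%. Of 97 genes with a gene ontology term for a DNA damage checkpoint, 40 rose and 7 fell (41.2% and 7.22%), and their median of 0.10 lay next to the 0.09 of all genes (0.02 and 0.01 with median-of-ratios factors). Stress programmes that also induce Cdkn1a or Gadd45 genes were counted alongside. Immediate early genes, which respond to handling, had 4 higher and 4 lower of 28 (14.3% each, median -0.04), and 0 and 4 with median-of-ratios factors. Genes of the integrated stress response had 5 higher and 2 lower of 14 (35.7% and 14.3%, median 0.02), and 4 and 2 with those factors. Targets of the glucocorticoid receptor and Foxo factors had 7 higher and 14 lower of 25 (28.0% and 56.0%, median -0.22), and 5 and 14 with those factors. These shares stand beside 28.4% and 11.8% of all genes, or 15.6% and 17.5% with those factors. The part of these programmes in the Gadd45a and Cdkn1a values was not tested.

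As a description over all 10 libraries, which share the group difference, the genes most like each of the 9 were sought among the 11708 others whose mean reached 1 FPKM. The nearest to Chek2 was Copb2 (Pearson r = 0.99), to Atm Fam76b (0.99), to Atr Nop14 (0.98) and to Chek1 Ccz1b (0.98). The nearest to Gadd45a was Akap1 (0.97), to Gadd45b Crebzf (0.98) and to Gadd45g Arfgef2 (0.93). Cdkn1a was most like Rrlt (0.92) and Mdm2 most like Npnt (0.95). Among the 9 genes themselves the strongest positive r was 0.87, between Atr and Chek1, and the strongest negative r was -0.87, between Chek2 and Gadd45a. With 11708 candidates and 10 points these values are a description only, and nothing about shared control is read from them.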

How the data were processed

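Messenger RNA was sequenced from 5 CON and 5 HG fetal hearts with a stranded poly(A) kit. The authors deposited FPKM per gene, after trimming with fastp, alignment with HISAT2 to mRatBN7.2 and counting with HTSeq, as the submitters' processing notes list them with R 3.2.0. FPKM divides by the gene's length and by the library's reads, so abundant transcripts that shift between groups move all other values, and alternative scalings were therefore tried. The study's methods speak of a library from pooled RNA, but the 10 deposited columns differ, and each was taken as 1 library. All sample columns were used (0 left out).

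Each value was a whole multiple of 1 read (tolerance 1e-06) in 100.0% of 18025 genes, and totals per library were 17639895 to 18240006 reads in CON and 16672876 to 19109844 in HG. Genes whose mean reached 0.1 FPKM entered limma 3.58.1 (R 4.3.3, trend, empirical Bayes) on log2(FPKM + 0.1) with Benjamini-Hochberg adjustment over all tested genes, so fold changes of low genes are understated. A gene was called at an adjusted p under 0.05. Ratios within a library were compared with exact two-sided permutation tests (scipy 1.17.1), adjusted over 6 ratios. The scripts were tested on simulated data. Same-numbered libraries of the 2 groups did not deviate together (r from -0.21 to 0.21), so no pairing was used.

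The 9 genes and the gene lists were chosen with earlier results of these data known. In the annotated pathway and ontology sets, 1 item is not reported here and was left out of the counts. Named were all 9 genes, the 3 largest called differences of each list of checkpoint, cell cycle, p53 and Gadd45 genes, direct partners named for their role, and the 3 genes most like each member, of which the first is given. Outside this rule, the lower genes of the p53 and Gadd45 lists, the apoptosis targets, Ccng2, Sesn2, Sesn3, Nppa and genes shared between lists were named as well. Promoters came from the RefSeq table of GRCr8, another build than the authors' alignment. Alternatives were pseudocounts of 1 and 0.01, no filter or a filter at 1 FPKM, median-of-ratios and quantile scaling, leaving out hemoglobin genes, no trend, a replicate block, Y chromosome genes as a covariate, voom on recovered reads, and leaving out each library.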

Additional observations from a re-analysis of the deposited data

How the results depend on the processing

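Over 11 other settings of the fit, between 5 and 6 of the 9 genes were called, and leaving out 1 library gave 6 to 7; no gene of the 9 passed a log2 fold change of 1 under any of them. With a replicate block 6 were called, and the block changed no member's call. With median-of-ratios factors Chek1 fell to 0.18 (adjusted p = 0.0751), Mdm2 turned to -0.0017, Atrip to -0.06 and Bbc3 to -0.03, and the counts became 8 higher and 1 lower for checkpoint activation, 5 higher and 7 lower for p53 control, 14 higher p53 targets and 4 lower Gadd45 partners. With quantile normalization Chek1 was 0.17 (adjusted p = 0.0762), Atrip -0.07, Bbc3 -0.05, checkpoint activation had 8 higher genes and p53 targets 13. In these scalings the median of all genes lies near zero by construction.

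Without 1 library, Gadd45g ranged from -0.56 (called without CON replicate 1) to -0.28, the log2 difference of the ratio of Atr to Atm from -0.09 to 0.03 and that of Gadd45a to Gadd45g from -0.17 to 0.16. Of the uncalled genes named, Atrip ranged from -0.02 to 0.08, Nbn from -0.07 to 0.01, Bbc3 from -0.01 to 0.11 and Map3k4 from -0.04 to 0.02. For the ratios, exact sign-flip permutation over 5 numbered pairs (the replicate block) cannot give a p below 0.0625. Chek2 to Chek1 stayed at 0.35 and Gadd45a to Gadd45b at -0.78 with that p, and Gadd45b to Gadd45g at 0.76 had an exact p = 0.125. The numbers mark no shared litter or day in the labels. Gadd45b and Chek2 rested on the fewest reads of the 9, with 165 to 358 per library, while the SE was largest for Gadd45g (0.19, against 0.069 for Chek2).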
